A study of Mus musculus with 67 samples.

Results

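Primitive endoderm (PrE) was compared with epiblast (Epi) in mouse embryos labelled E5.0, the day around implantation, across the whole transcriptome. The members were the 3 PrE and 3 Epi libraries of E5.0 without the in vivo suffix, 6 of the 67 libraries of the series, and all 25006 genes of the deposited matrix. The embryos were wild type and came from a mouse line in which the Pdgfra promoter drives EGFP, used to help isolate the lineages. RNA was read by Smart-seq2, an amplification of polyadenylated RNA from small pools of cells. PrE and Epi of E4.75 and of E5.25 (3 libraries each) served to show where E5.0 differed from the ages beside it. Epi of E5.0 with the in vivo suffix (3 libraries) and, of E4.75, trophoblast giant cells (TGC) and extra-embryonic ectoderm (ExE) (3 libraries each) were used for single checks. Whether the groups without the suffix came from embryos grown in culture or taken from the uterus is not given in the sources used here. The labels call the libraries of a group biological replicates without saying which embryos they came from. The p-values therefore measure only the spread between libraries within groups. That spread was taken over all 67 libraries of the series, not over the 6 alone.

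The primitive endoderm is the epithelium that lies on the pluripotent epiblast of the implanting embryo. It gives rise to the visceral endoderm, which takes up and digests maternal material and secretes plasma proteins before the liver exists, and to the parietal endoderm, which lays down a thick basement membrane. FGF4 made by epiblast cells drives its formation through GATA6, and signals pass back from it to pattern the epiblast, among them the Nodal and WNT antagonists of its distal and anterior part.

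Values are TPM, transcript abundance scaled by transcript length to a fixed total per library, so a difference in TPM does not give a number of molecules. Fewer cells of a type in the pool and less RNA per cell cannot be told apart. TPM keeps no read depth, so the counting error of each value is unknown. Between 10379 and 10460 genes reached 1 TPM in the PrE libraries, and between 10422 and 11142 in the Epi libraries. Replicates correlated across genes at Pearson 0.9879 to 0.9882 in PrE and 0.9655 to 0.9753 in Epi, on log2(TPM + 1). Their root mean square standard deviation over genes was 0.292 log2 units in PrE and 0.477 in Epi. The tests used a spread per gene shared by all groups, so they do not reflect the wider spread of Epi. Replicate 1 of each lineage stood apart in the same way. Rn45s, the ribosomal RNA precursor, was 4683, 12230 and 11370 TPM in PrE replicates 1 to 3, against 3703, 11700 and 11890 TPM in Epi replicates 1 to 3. Actb, a cytoskeletal actin, was 11630, 6919 and 7041 TPM in PrE, against 8431, 5126 and 4674 TPM in Epi.

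The lineage labels were checked first. Pdgfra (chromosome 5, 75152292 to 75198215 on GRCm38), the platelet-derived growth factor receptor that marks primitive endoderm, was 17, 18.8 and 17.4 TPM in PrE, against 0.166, 0.0252 and 1.05 TPM in Epi. All PrE libraries lay above all Epi libraries, a log2 difference of 3.79 ± 0.33 (adjusted p = 3.9e-14). Since the Pdgfra promoter drives the reporter, this gene is not independent of the isolation. Ttr, which encodes the thyroid hormone and retinol carrier transthyretin, was 2450, 2145 and 2235 TPM in PrE, against 9.43, 11.2 and 14.9 TPM in Epi. The groups were far apart, a log2 difference of 7.49 ± 0.21 (adjusted p = 1.5e-33). Pou5f1 (chromosome 17, 35506018 to 35510772), which encodes OCT4, was 3.54, 1.26 and 2.90 TPM in PrE, against 187, 146 and 134 TPM in Epi. Here the Epi libraries were the high ones, a log2 difference of -5.5 ± 0.41 (adjusted p = 1.7e-16). Of the other markers chosen for this check, Gata4, Gata6, Sox7, Sox17 and Dab2 were called higher in PrE, and Nanog, Sox2, Tdgf1 and Pou3f1 lower, while Fgf5 was not called. Gata6, the factor that starts the primitive endoderm programme, averaged 11.9 TPM in PrE and 0.293 TPM in Epi, with Epi replicates 2 and 3 listed at 0. Sox17 and Sox7, related endoderm factors, averaged 66.5 and 47.8 TPM in PrE, and 3.31 and 1.91 TPM in Epi. Pou3f1, a POU factor of the later epiblast, was 0, 0 and 0.148 TPM in PrE, against 35.1, 16.6 and 15.6 TPM in Epi. Nanog averaged 0.0647 TPM in PrE and 6.35 TPM in Epi, and Sox2 averaged 0.0632 TPM in PrE and 1.75 TPM in Epi. Fgf5, a marker of primed epiblast, was 139, 141 and 159 TPM in PrE, against 62.4, 48.7 and 83.6 TPM in Epi (log2 1.19 ± 0.49, adjusted p = 0.053).

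**Figure D1:**
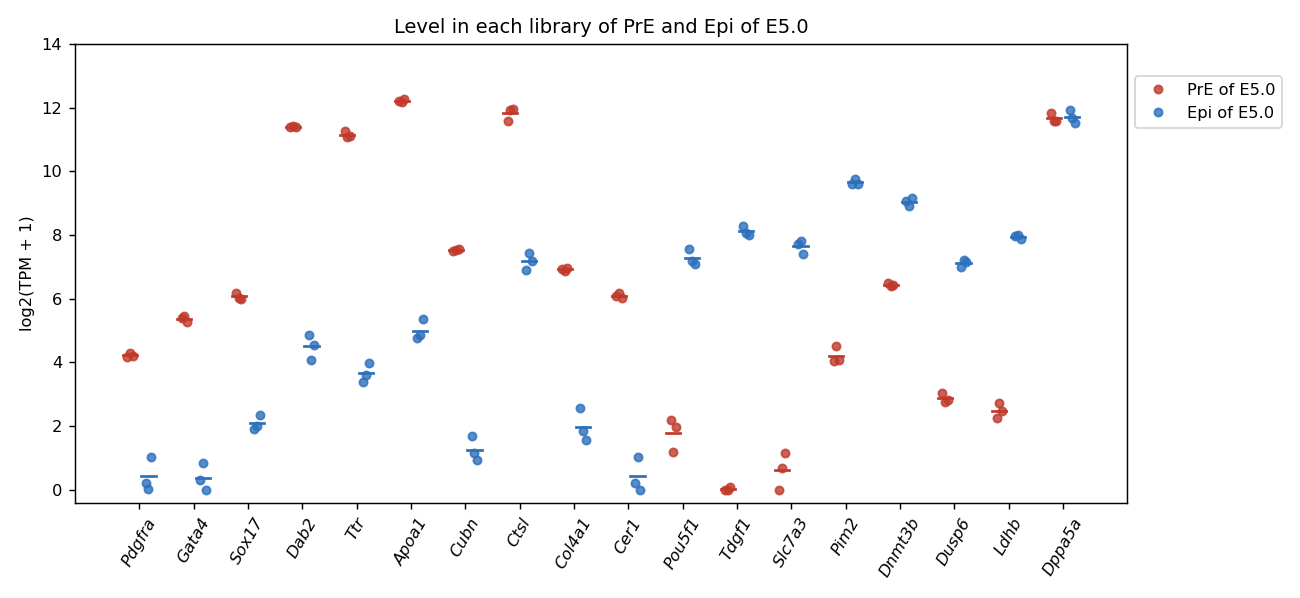
Level of 18 genes in each library of PrE (red, left of each pair) and Epi (blue) of E5.0; the vertical axis is log2(TPM + 1), each point is 1 library and each bar the mean of 3. Pdgfra to Cer1 lie higher in all PrE libraries, Pou5f1 to Ldhb lie higher in all Epi libraries, and Dppa5a overlaps.

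To show the DNA in front of genes that separated the lineages, RefSeq promoter windows (build GRCm38.p6, 250 bases before to 50 bases after an annotated start) were matched by symbol to 12003 of the 15567 genes tested. Dab2 and Apoa1 stand for the genes higher in PrE, Afp and Fgb for secreted liver-type proteins, and Pim2 for the genes lower in PrE; these 5 were chosen after their values were seen, for holding a motif. Capitals mark matches on either strand to AGATAA or TGATAA (the GATA motif), GTTAATNAT (HNF1) or ATGCAAAT (the OCT motif). The Dab2 window is chr15:6299539-6299838 on the plus strand, 1 of 2 listed for the gene; the other held no match. The Apoa1 window is chr9:46228380-46228679 (plus), the Afp window chr5:90490464-90490763 (plus), the Fgb window chr3:83049814-83050113 (minus) and the Pim2 window chrX:7878056-7878355 (plus).
Dab2: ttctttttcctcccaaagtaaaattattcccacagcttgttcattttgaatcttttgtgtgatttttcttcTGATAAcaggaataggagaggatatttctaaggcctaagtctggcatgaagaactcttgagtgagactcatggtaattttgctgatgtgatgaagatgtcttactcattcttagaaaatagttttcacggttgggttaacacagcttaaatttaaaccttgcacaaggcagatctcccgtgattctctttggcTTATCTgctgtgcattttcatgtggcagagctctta
Apoa1: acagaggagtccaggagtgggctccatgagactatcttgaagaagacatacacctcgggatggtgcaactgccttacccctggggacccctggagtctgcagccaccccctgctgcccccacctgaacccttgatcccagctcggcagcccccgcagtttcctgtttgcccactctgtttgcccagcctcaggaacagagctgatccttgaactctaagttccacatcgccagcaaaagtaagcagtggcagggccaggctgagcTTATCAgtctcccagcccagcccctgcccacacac
Afp: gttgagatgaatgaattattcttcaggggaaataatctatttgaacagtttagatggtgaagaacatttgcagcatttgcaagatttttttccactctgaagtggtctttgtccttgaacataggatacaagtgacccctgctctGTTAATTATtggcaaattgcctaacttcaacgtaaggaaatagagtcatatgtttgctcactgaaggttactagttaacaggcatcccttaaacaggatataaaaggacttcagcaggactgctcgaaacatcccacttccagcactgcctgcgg
Fgb: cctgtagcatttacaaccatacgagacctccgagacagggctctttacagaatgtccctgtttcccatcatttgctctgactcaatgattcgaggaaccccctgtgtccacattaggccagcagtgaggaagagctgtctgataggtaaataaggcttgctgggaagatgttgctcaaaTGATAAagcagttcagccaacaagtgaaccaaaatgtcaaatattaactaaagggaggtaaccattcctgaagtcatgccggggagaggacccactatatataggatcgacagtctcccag
Pim2: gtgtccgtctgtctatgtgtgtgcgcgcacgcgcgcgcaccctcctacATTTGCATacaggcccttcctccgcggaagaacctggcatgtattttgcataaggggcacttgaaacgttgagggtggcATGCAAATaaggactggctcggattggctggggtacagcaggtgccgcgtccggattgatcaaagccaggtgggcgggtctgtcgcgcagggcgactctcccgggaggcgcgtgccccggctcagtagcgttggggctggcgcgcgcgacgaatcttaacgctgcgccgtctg
In Dab2 the match before the start began 179 bases upstream, in Afp 105, in Fgb 71, and in Pim2 the 2 matches began 202 and 123 bases upstream, while the Apoa1 match and the second Dab2 match lay just after the start, on the opposite strand.

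The same motifs were counted in all windows as a description, with a gene counted once if any of its windows held the motif. A GATA motif (either form) was in 14.8% of 1436 genes called higher in PrE with a window, 11.5% of 1563 genes called lower, and 12.9% of all 12003 genes with a window. The HNF1 motif was in 24 genes called higher (1.67%), in 2 called lower (0.128%) and in 64 of all (0.533%). CAAAGTCC, an HNF4 motif, was in 3.06% of the genes called higher, 1.6% of those called lower and 1.73% of all. The OCT motif was in 2.09% of the genes called higher, 3.01% of those called lower and 1.73% of all. Over all 32851 windows of the table the shares were 18.6%, 0.801%, 1.42% and 1.74% for GATA, HNF1, HNF4 and OCT. A match is not evidence of binding.

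A gene was called at a limma adjusted p under 0.05 (Benjamini-Hochberg over all genes) and a log2 difference of at least 1 in size; ± beside a log2 difference is its standard error, and all log2 differences are PrE minus Epi on the log2(TPM + 1) scale, which understates the change of low genes. Of 15567 genes tested, 1817 were higher in PrE (11.7%), 1991 were lower (12.8%) and 11759 were not called. The 3 PrE and 3 Epi libraries did not overlap for 1780 of the genes called higher and 1925 of those called lower. Genes that pass both cutoffs seldom overlap between 3 and 3 libraries, so these counts add no support. The share without overlap over all genes tested was not counted. By size, 282 genes were higher by at least 3 log2 units and 198 were lower by as much, and at 5 log2 units there were 54 and 28. Leaving out any 1 of the 6 libraries gave 1558 to 1896 genes higher and 1707 to 2072 lower. The median log2 difference of all genes tested was -0.08. With Epi of E5.0 in vivo in place of Epi of E5.0, 4087 genes were called higher and 1264 lower. Rn45s was 83690, 82020 and 110400 TPM and Actb 517.5, 499.7 and 545.9 TPM in those in vivo libraries, and the part of that composition in the counts was not tested.

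**Figure D2:**
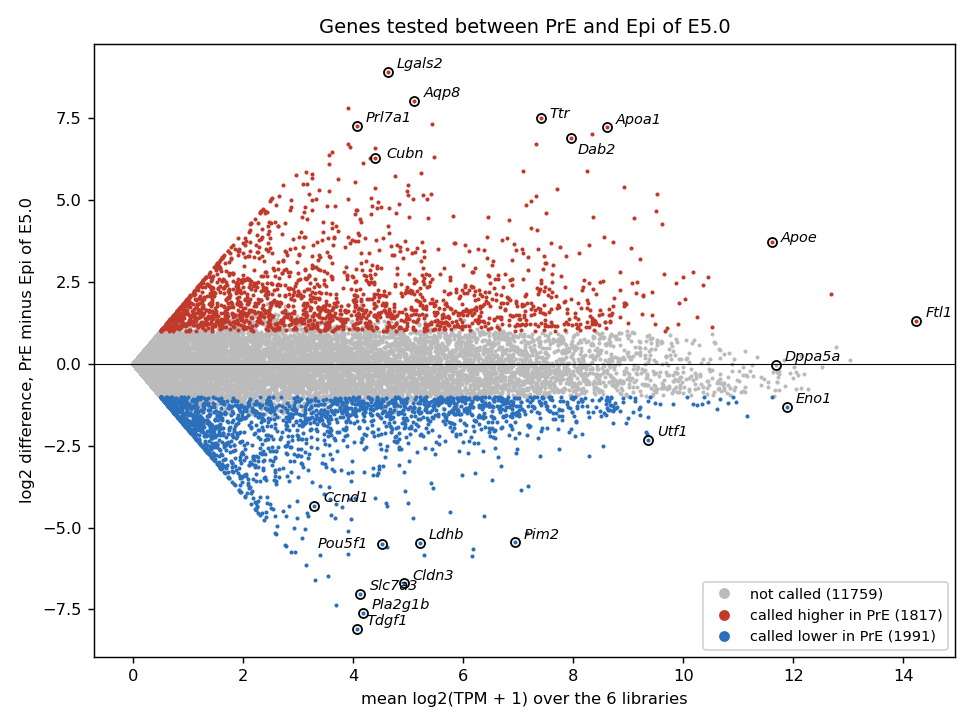
Log2 difference, PrE minus Epi of E5.0 (vertical axis), against mean log2(TPM + 1) over the 6 libraries (horizontal axis), 1 point a gene; red marks 1817 genes called higher in PrE, blue 1991 called lower and grey 11759 not called. Circles mark the labelled genes; Lgals2 and Aqp8 lie at the top, Tdgf1 and Pla2g1b at the bottom.

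The 10 genes furthest to the PrE side without overlap included a galectin, a water channel and several secreted proteins. Lgals2, a galectin, was 669.8, 486 and 488 TPM in PrE, against 0.436, 0 and 0 TPM in Epi (log2 8.91 ± 0.28, adjusted p = 1.1e-31). Aqp8, a water channel, was 505, 589 and 586 TPM in PrE, against 0.423, 1.65 and 1.59 TPM in Epi (log2 8.03 ± 0.30, adjusted p = 3.0e-28). Both genes were near 0 in every Epi library. Spink1, a trypsin inhibitor, was 3904, 3618 and 3469 TPM in PrE, against 42.0, 24.8 and 19.8 TPM in Epi (log2 7.0 ± 0.46, adjusted p = 2.5e-18). The 10 furthest also held Ttr, Apoa1, Apoa4, Apom, Dab2 and Prl7a1, a prolactin-family hormone gene of the placenta that is taken up with the markers of other tissues.

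On the Epi side Tdgf1, which encodes the Nodal co-receptor CRIPTO, stood furthest away, with 0, 0 and 0.0569 TPM in PrE, against 311, 268 and 257 TPM in Epi (log2 -8.10 ± 0.21, adjusted p = 4.9e-35). It was listed at 0 in PrE replicates 1 and 2. Pla2g1b, a secreted phospholipase A2, was 0, 0.638 and 0.333 TPM in PrE, against 251, 265 and 237 TPM in Epi (log2 -7.60 ± 0.47, adjusted p = 2.7e-19). Slc7a3, a cationic amino acid transporter, was 0, 0.608 and 1.26 TPM in PrE, against 209, 223 and 169 TPM in Epi (log2 -7.02 ± 0.44, adjusted p = 4.9e-19). Both were near 0 in every PrE library. Cldn3, a tight junction claudin, was 1.94, 1.56 and 2.49 TPM in PrE, against 275, 337 and 313 TPM in Epi (log2 -6.70 ± 0.35, adjusted p = 2.1e-22). Bok, a BCL2-family gene, averaged 0.243 TPM in PrE and 111 TPM in Epi, and Uchl1, a ubiquitin hydrolase, averaged 0.0592 TPM in PrE and 73.7 TPM in Epi. Cbr3, a carbonyl reductase, and Ifitm3, an interferon-induced membrane protein, were listed at 0 in all PrE libraries, against 98.0 and 167 TPM on average in Epi. Ifitm2 averaged 8.54 TPM in PrE and 543 TPM in Epi. Ifitm2 and Ifitm3 belong to the same gene family, and the split of reads between them was not checked. Inpp1, an inositol phosphatase, averaged 0.464 TPM in PrE and 79.0 TPM in Epi.

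Among 15 endoderm transcription factors tested, 13 were higher in PrE and 1 was lower, with a median log2 difference of 3.98 against -0.08 for all genes. Each list count here and below stands beside 11.7% higher and 12.8% lower of all genes. Gata4, a zinc finger factor of endoderm and heart, was 41.3, 42.9 and 37.3 TPM in PrE, against 0.233, 0.781 and 0 TPM in Epi (log2 4.99 ± 0.32, adjusted p = 9.8e-19). Foxa2, a forkhead factor of endoderm, was 28.4, 22.0 and 27.8 TPM in PrE, against 0.253, 0 and 0 TPM in Epi (log2 4.64 ± 0.41, adjusted p = 6.8e-14). Both factors were near 0 in every Epi library. Cited1, a transcriptional co-activator without a DNA-binding domain, was 3230, 3092 and 3153 TPM in PrE, against 62.9, 77.4 and 81.9 TPM in Epi (log2 5.40 ± 0.38, adjusted p = 4.3e-17). The 1 gene lower in PrE was Ets2, an ETS factor of trophoblast, at 3.69, 5.76 and 5.22 TPM in PrE, against 23.7, 17.4 and 19.8 TPM in Epi; it was not called with Epi of E5.0 in vivo. Nr2f2, an orphan nuclear receptor, was not called, with 0.562, 0.194 and 0.269 TPM in PrE, against 0.526, 0.175 and 0.134 TPM in Epi.

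Among 13 receptors and adaptors linked to the primitive endoderm, 6 were higher and 3 lower in PrE (median log2 difference 0.49), beside 11.7% and 12.8% of all genes. Dab2, an adaptor that binds endocytic receptors and is itself needed for endoderm to sort out, was 2672, 2755 and 2664 TPM in PrE, against 28.3, 16.0 and 22.4 TPM in Epi (log2 6.89 ± 0.29, adjusted p = 5.4e-26). No Epi library came near the PrE range. Pth1r, the receptor of parathyroid hormone-related protein and a parietal endoderm inducer, was 64.7, 58.4 and 76.2 TPM in PrE, against 3.37, 3.24 and 3.67 TPM in Epi (log2 3.92 ± 0.34, adjusted p = 5.6e-14). Fgfr3 averaged 7.14 TPM in PrE and 0.163 TPM in Epi (log2 2.83), while Fgfr1 averaged 0.223 TPM in PrE and 9.0 TPM in Epi (log2 -3.04). Fgfr2 was called lower, at 1.33, 0.869 and 1.86 TPM in PrE, against 7.99, 2.52 and 4.44 TPM in Epi, but the call was lost without Epi replicate 1, without PrE replicate 2, in a fit of only the groups compared or with a pseudocount of 0.1 TPM, and its log2 difference was 0.34 against Epi of E5.0 in vivo. Fgfr4 was 11.6, 8.90 and 8.86 TPM in PrE, against 9.58, 4.47 and 6.75 TPM in Epi, which overlapped, and was not called. Shc1, an adaptor of receptor tyrosine kinases, was lower in PrE (18.8 TPM in PrE and 53.6 TPM in Epi), with a positive log2 difference of 0.96 against Epi of E5.0 in vivo.

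Of 8 FGF ligand genes, 2 were higher and 3 lower in PrE (median log2 difference -0.51), few calls to set against the 11.7% and 12.8% of all genes. Fgf4, the epiblast ligand, was listed at 0 in all PrE libraries, against 9.60, 13.7 and 12.4 TPM in Epi. Fgf15 was likewise listed at 0 in PrE, against 51.1, 60.7 and 47.0 TPM in Epi. Fgf8 ran the other way, with 121, 139 and 128 TPM in PrE, against 4.92, 2.84 and 4.05 TPM in Epi (log2 4.745 ± 0.51, adjusted p = 4.6e-11), and so did Fgf10, with 12.7, 17.8 and 12 TPM in PrE, against 1.53, 0.331 and 0.209 TPM in Epi (log2 3.23 ± 0.43, adjusted p = 1.4e-08). Of 16 targets and inhibitors of the FGF and ERK pathway, 1 was higher and 8 were lower in PrE, with a median log2 difference of -1.15. Dusp6, the phosphatase that switches off ERK, was 7.22, 5.78 and 6.13 TPM in PrE, against 127, 146 and 141 TPM in Epi (log2 -4.24 ± 0.21, adjusted p = 5.6e-23). The ETS factor Etv5 was 10.8, 9.14 and 14.4 TPM in PrE, against 97.2, 43.5 and 56.5 TPM in Epi (log2 -2.36 ± 0.41, adjusted p = 4.1e-06). Myc was 31.9, 31.2 and 30.9 TPM in PrE, against 122, 149 and 128 TPM in Epi (log2 -2.04 ± 0.46, adjusted p = 3.1e-04). In each of these 3 genes every Epi library lay above every PrE library. Il17rd, an FGF inhibitor, was the 1 member higher, at 5.67 TPM in PrE and 1.27 TPM in Epi. Etv5 and Myc were not called with Epi of E5.0 in vivo, and Dusp6 in those libraries was 11.1, 15.7 and 19 TPM.

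Of 26 plasma protein and apolipoprotein genes tested, 19 were higher and 1 was lower in PrE (median log2 difference 3.43). Together the listed genes took 29470 to 30000 TPM in the PrE libraries, against 1209 to 1426 TPM in the Epi libraries, or 2.98% and 0.133% of all TPM. Apoa1, the main protein of high-density lipoprotein, was 4728, 4675 and 4907 TPM in PrE, against 26.3, 28.2 and 40.1 TPM in Epi (log2 7.22 ± 0.51, adjusted p = 2.9e-17). Apoa4 was 555, 529 and 538 TPM in PrE, against 4.40, 2.74 and 0.99 TPM in Epi (log2 7.30 ± 0.44, adjusted p = 6.5e-20). Apom, which carries sphingosine 1-phosphate, was 1802, 1580 and 1556 TPM in PrE, against 10.2, 21.4 and 14.1 TPM in Epi (log2 6.72 ± 0.33, adjusted p = 2.6e-23). Every PrE library of these 3 genes lay far above every Epi library. Pga5, which encodes a pepsinogen, was 4253, 4498 and 4571 TPM in PrE, against 122, 136 and 108 TPM in Epi (log2 5.18 ± 0.42, adjusted p = 7.3e-15). Rbp4, the plasma retinol carrier, averaged 29.6 TPM in PrE and 2.56 TPM in Epi. Afp and Fgb, chosen for their promoters after values were seen, averaged 42.2 TPM and 23.9 TPM in PrE, and Afp averaged 0.806 TPM in Epi while Fgb was listed at 0 there. Apoc1 was not called, at 160.5, 132 and 142 TPM in PrE, against 183, 189 and 172 TPM in Epi. Fetub, a fetuin, was the member lower in PrE, with 0, 0.992 and 0.346 TPM in PrE, against 8.49, 10.7 and 10.2 TPM in Epi.

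Endocytic uptake genes followed the same side, with 13 of 19 higher and 1 lower in PrE (median log2 difference 1.90). Cubilin, megalin and amnionless form the receptor complex with which visceral endoderm takes up maternal protein. Cubn was 179, 184 and 189 TPM in PrE, against 2.23, 1.23 and 0.925 TPM in Epi (log2 6.27 ± 0.32, adjusted p = 1.3e-22). Lrp2, which encodes megalin, was 134, 137 and 130.1 TPM in PrE, against 2.22, 1.96 and 2.67 TPM in Epi (log2 5.36 ± 0.25, adjusted p = 1.5e-24). Amn was 933, 899 and 983 TPM in PrE, against 26.6, 33.3 and 20.3 TPM in Epi (log2 5.11 ± 0.44, adjusted p = 4.3e-14). No Epi library came near the PrE range for any of the 3. Scarb1, the receptor for high-density lipoprotein, overlapped and was not called, with 46.5, 55.1 and 48.6 TPM in PrE, against 60.1, 53.9 and 63.3 TPM in Epi. Its log2 difference was 2.05 against Epi of E5.0 in vivo.

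In the lysosomal list 22 of 26 genes were higher in PrE, 0 were lower and 4 were not called (median log2 difference 2.55). Its genes summed to 20380 to 21760 TPM in PrE and 1995 to 2317 TPM in Epi. Ctsl, a cysteine protease, was 3056, 3931 and 3998 TPM in PrE, against 118, 174 and 144 TPM in Epi (log2 4.65 ± 0.14, adjusted p = 1.1e-31). Lgmn, the asparagine-specific protease legumain, was 2579, 2565 and 2609 TPM in PrE, against 108, 119 and 123 TPM in Epi (log2 4.46 ± 0.13, adjusted p = 5.3e-33). Ctsh was 1334, 1275 and 1361 TPM in PrE, against 28.9, 31.2 and 35.8 TPM in Epi (log2 5.33 ± 0.41, adjusted p = 6.1e-16). All 3 proteases were far apart in every library. The members not called included Psap, which encodes the saposin precursor, at 7.53, 10.9 and 13.8 TPM in PrE, against 17.7, 16.4 and 14.3 TPM in Epi, and Gusb, beta-glucuronidase, at 35.9, 40.6 and 39.9 TPM in PrE, against 31.2, 27.3 and 29.4 TPM in Epi.

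Basement membrane genes were higher for 10 of 19 and lower for 2 (median log2 difference 1.07). Col4a1 was 122, 115 and 124 TPM in PrE, against 4.90, 2.61 and 1.93 TPM in Epi (log2 4.94 ± 0.30, adjusted p = 1.7e-19). Col4a2, its partner chain in the collagen IV network, was 54.9, 51.0 and 45.5 TPM in PrE, against 2.19, 0.817 and 3.26 TPM in Epi (log2 4.14 ± 0.38, adjusted p = 3.4e-13). Lama1, the laminin chain of the embryonic basement membranes, was 27.8, 27.2 and 25.6 TPM in PrE, against 1.25, 0.656 and 1.13 TPM in Epi (log2 3.80 ± 0.32, adjusted p = 1.4e-14). Sparc, a collagen-binding glycoprotein, reached 1536, 1481 and 1595 TPM in PrE, against 131, 106 and 113 TPM in Epi (log2 3.71 ± 0.16, adjusted p = 1.7e-25). All 4 were apart in every library. Lama5, the laminin chain of later epithelia, overlapped, with 4.70, 4.44 and 5.32 TPM in PrE, against 5.88, 4.37 and 3.15 TPM in Epi. Col18a1 was lower in PrE, at 2.26, 4.14 and 2.15 TPM in PrE, against 23.8, 11.8 and 15.1 TPM in Epi, and Fn1, fibronectin, was called lower at 0.424, 0.526 and 0.417 TPM in PrE, against 4.35, 0.745 and 2.93 TPM in Epi, a call that was lost without Epi replicate 1, without Epi replicate 3, in a fit of only the groups compared or with Epi of E5.0 in vivo.

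Of 18 genes for folding and modifying collagen, 12 were higher and 1 lower in PrE (median log2 difference 1.48). Serpinh1, the collagen chaperone HSP47, was 201, 108 and 108 TPM in PrE, against 8.82, 2.41 and 4.15 TPM in Epi (log2 4.59 ± 0.39, adjusted p = 2.0e-14). P4ha1, a subunit of prolyl 4-hydroxylase, was 99.8, 95.6 and 88.2 TPM in PrE, against 7.89, 4.05 and 14.2 TPM in Epi (log2 3.44 ± 0.35, adjusted p = 1.4e-11). Plod2, a lysyl hydroxylase, averaged 29.9 TPM in PrE and 3.92 TPM in Epi. In the parietal endoderm list 9 of 15 genes were higher and 3 lower (median log2 difference 2.24). Srgn, a proteoglycan of secretory vesicles, was 2210, 2477 and 2269 TPM in PrE, against 38.2, 34.2 and 43.6 TPM in Epi (log2 5.87 ± 0.38, adjusted p = 2.0e-18). The 3 lower members were Procr, the protein C receptor (0.318 TPM in PrE and 13.3 TPM in Epi), Fosl1 (0.742 TPM in PrE and 12.7 TPM in Epi) and Vim, vimentin (1.59 TPM in PrE and 9.69 TPM in Epi). The call of Vim was lost without Epi replicate 2, and that of Fosl1 with Epi of E5.0 in vivo.

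Genes of the distal and anterior visceral endoderm were higher for 12 of 17 and lower for 0 (median log2 difference 2.44). Cer1, a secreted antagonist of Nodal, BMP and WNT, was 66.9, 71.2 and 64.5 TPM in PrE, against 0.167, 1.06 and 0 TPM in Epi (log2 5.68 ± 0.25, adjusted p = 1.6e-25). Dkk1, a WNT antagonist, was 106, 109.6 and 119 TPM in PrE, against 1.10, 1.43 and 1.74 TPM in Epi (log2 5.54 ± 0.26, adjusted p = 4.4e-24). Both were near 0 in every Epi library. Hesx1, a homeobox repressor, was 55.3, 61.0 and 53.8 TPM in PrE, against 0.636, 1.02 and 0.631 TPM in Epi (log2 5.04 ± 0.41, adjusted p = 9.2e-15). Lefty1, a Nodal antagonist, was 61.5, 70.0 and 87.3 TPM in PrE, against 7.06, 2.24 and 10.3 TPM in Epi (log2 3.46 ± 0.42, adjusted p = 1.9e-09). Lhx1 averaged 15.5 TPM in PrE and 0.350 TPM in Epi, and Sfrp5 averaged 14.4 TPM in PrE and 1.02 TPM in Epi. Otx2 and Eomes, also used by the epiblast and by trophoblast, were not called: Otx2 was 73.7, 82.3 and 77.3 TPM in PrE, against 46.3, 38.8 and 52.5 TPM in Epi and Eomes 23.3, 23.0 and 26.7 TPM in PrE, against 22.6, 19 and 27.8 TPM in Epi. Mixl1, a gastrulation homeobox gene, was 42.8, 26.7 and 21.2 TPM in PrE, against 1.71, 0.288 and 0 TPM in Epi (log2 4.30 ± 0.56, adjusted p = 9.5e-09). It also stands in the mesoderm and gastrulation list, where 4 of 11 genes were higher and 0 lower in PrE (median log2 difference 0.29); the other 3 higher were Gsc, Fgf8 and Lhx1, which have endoderm roles as well. The call of Gsc was lost in a fit of only the groups compared.

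In Nodal signalling 6 of 20 genes were higher and 7 lower in PrE (median log2 difference 0.49), beside 11.7% and 12.8% of all genes. Partners in the pathway lay on opposite sides. Nodal itself was 27.2, 35.6 and 41.2 TPM in PrE, against 21.7, 23.4 and 23.4 TPM in Epi and was not called. Of its co-receptor genes, Tdgf1 was the gene furthest to the Epi side, while Cfc1, which encodes CRYPTIC, was 194, 194 and 198 TPM in PrE, against 1.25, 6.19 and 2.13 TPM in Epi (log2 5.73 ± 0.50, adjusted p = 5.6e-14). Of the antagonist genes, Lefty1 was higher in PrE, and Lefty2 was 0.141, 0 and 0 TPM in PrE, against 6.10, 9.73 and 6.68 TPM in Epi (log2 -3.0 ± 0.45, adjusted p = 3.3e-07), a call that was lost with Epi of E5.0 in vivo, where Lefty2 was listed at 0. Gdf3, a related ligand, was 0.672, 0 and 1.08 TPM in PrE, against 37.3, 59.1 and 52.1 TPM in Epi (log2 -5.03 ± 0.34, adjusted p = 8.9e-18).

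BMP genes divided too, with 8 of 23 higher and 4 lower (median log2 difference 0.57), beside 11.7% and 12.8% of all genes. Bmp2 averaged 5.61 TPM in PrE and 0.408 TPM in Epi, and Bmp6 averaged 2.99 TPM in PrE and was listed at 0 in Epi. Bmp4 was 4.62, 8.07 and 8.79 TPM in PrE, against 127, 109 and 114 TPM in Epi (log2 -3.89 ± 0.61, adjusted p = 7.4e-07). Bmp8b was listed at 0 in PrE, against 29.1, 21.6 and 29.0 TPM in Epi; Bmp8a and Bmp8b are close copies. Bmp4 and Bmp8b are also extra-embryonic ectoderm genes. They averaged 67.89 and 13.19 TPM in ExE of E4.75, against 117.1 and 26.56 TPM in Epi of E5.0. The part of trophoblast RNA in their levels was not tested. Bmp4 was not called with Epi of E5.0 in vivo, where it was 11.1, 3.69 and 12.1 TPM. Id1, a target of BMP signals, was 402, 394 and 373 TPM in PrE, against 47.5, 69.3 and 43.5 TPM in Epi (log2 2.87 ± 0.31, adjusted p = 8.7e-11). Msx2, another target, averaged 54.9 TPM in PrE and 6.35 TPM in Epi. WNT inhibitors and targets had 4 of 13 higher and 3 lower (median log2 difference 0.19). Lef1, a WNT effector, was listed at 0 in PrE, against 41.6, 26.6 and 37.7 TPM in Epi, and the WNT antagonist Sfrp2 averaged 0.0440 TPM in PrE and 9.56 TPM in Epi.

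Core pluripotency genes were higher in PrE for 0 of 15 and lower for 8 (median log2 difference -1.26). Besides Pou5f1 and Tdgf1, Dppa4, a nuclear protein of pluripotent cells, was 26.4, 23.6 and 28.6 TPM in PrE, against 278, 335 and 333 TPM in Epi (log2 -3.54 ± 0.31, adjusted p = 1.0e-13). Not every such gene was lower. Dppa5a was among the abundant transcripts of both lineages, with 3686, 3046 and 3046 TPM in PrE, against 3904, 3269 and 2913 TPM in Epi (log2 -0.04 ± 0.09, adjusted p = 0.81). Sall4 was 113, 57.8 and 64.8 TPM in PrE, against 90.7, 29.7 and 37.0 TPM in Epi, which overlapped. Of 18 naive pluripotency genes 2 were higher and 8 lower (median log2 difference -0.62), beside 11.7% and 12.8% of all genes. Nr0b1, a nuclear receptor, was 0, 0.920 and 0 TPM in PrE, against 21.1, 32.2 and 23.3 TPM in Epi (log2 -4.39 ± 0.50, adjusted p = 2.6e-10), and Dppa3 and Mael, a pair of germline-associated genes, were listed at 0 in PrE, against 13.8 and 15.7 TPM on average in Epi. The 2 higher were Tbx3, a T-box factor (5.53 TPM in PrE and 0.341 TPM in Epi), and Stat3, the effector of LIF (18.7 TPM in PrE and 5.86 TPM in Epi). Both have roles outside naive cells, and 2 genes of 18 lie near the 11.7% higher of all genes.

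Formative and primed genes were lower for 13 of 22 and higher for 2 (median log2 difference -1.72), beside 12.8% lower and 11.7% higher of all genes. Pim2, a serine/threonine kinase, was 15.6, 21.8 and 15.9 TPM in PrE, against 772, 875 and 780.2 TPM in Epi (log2 -5.45 ± 0.32, adjusted p = 4.6e-20). Car14, a carbonic anhydrase, averaged 0.0591 TPM in PrE and 26.6 TPM in Epi. The de novo DNA methyltransferases stood in this list and in that for DNA methylation, where 0 of 12 were higher and 5 lower (median log2 difference -0.93). Dnmt3b was 89.0, 84.4 and 84.9 TPM in PrE, against 538, 481 and 574 TPM in Epi (log2 -2.61 ± 0.22, adjusted p = 1.7e-14). Dnmt3a was 12.4, 12.8 and 13.9 TPM in PrE, against 107, 80.2 and 86.4 TPM in Epi (log2 -2.71 ± 0.18, adjusted p = 1.7e-18), and their cofactor Dnmt3l was 39.9, 47.5 and 48.9 TPM in PrE, against 156, 199 and 220.0 TPM in Epi (log2 -2.04 ± 0.39, adjusted p = 2.6e-05). Every Epi library lay above every PrE library in all 3 genes, and none was near 0 in PrE. Uhrf1, which brings DNMT1 to replicated DNA, averaged 26.3 TPM in PrE and 93.0 TPM in Epi. Dnmt3b and Uhrf1 were not called with Epi of E5.0 in vivo. The 2 formative list members higher in PrE were Cdh2, N-cadherin (5.13 TPM in PrE and 0.230 TPM in Epi), and the ephrin receptor Epha4 (3.06 TPM in PrE and 0.291 TPM in Epi).

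Histone modifiers were mostly not called. In the Polycomb list 4 of 33 were higher, 5 lower and 24 not called (median log2 difference -0.15). Of 18 H3K4 methyltransferase complex genes 1 was higher and 4 were lower (median log2 difference -0.52). The Polycomb shares lay near the 11.7% higher and 12.8% lower of all genes, and 5 calls in the smaller list are few to set against them. Phc1, a subunit of the first Polycomb complex, was 1.32, 2.5 and 0.904 TPM in PrE, against 83.0, 45.5 and 68.0 TPM in Epi (log2 -4.70 ± 0.40, adjusted p = 3.8e-14). Pcgf5, another subunit, was 26.7, 31.0 and 29.4 TPM in PrE, against 1.95, 2.89 and 1.5 TPM in Epi (log2 3.29 ± 0.32, adjusted p = 1.6e-12). Rbbp7, a histone-binding protein of several complexes, was 1325, 1569 and 1506 TPM in PrE, against 578, 682 and 624 TPM in Epi (log2 1.22 ± 0.09, adjusted p = 6.0e-16). Dpy30, a core subunit of the H3K4 methyltransferases, was 242, 256 and 232 TPM in PrE, against 629, 572 and 676 TPM in Epi (log2 -1.35 ± 0.08, adjusted p = 1.9e-20). Of 9 demethylases tested 0 were higher and 1 was lower (median log2 difference 0.06), Kdm5b, at 9.54 TPM in PrE and 26.5 TPM in Epi.

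Epithelial families held called members on both sides, where 11.7% of all genes were higher and 12.8% lower. The lower shares of these lists lay near that 12.8%, on few genes. Of 26 adhesion and polarity genes 8 were higher and 4 lower in PrE (median log2 difference 0.59). Cldn6 was 2855, 3033 and 3218 TPM in PrE, against 399, 469 and 440.2 TPM in Epi (log2 2.80 ± 0.14, adjusted p = 5.4e-23), while Cldn3 and Cldn4 were lower, Cldn4 at 0.400 TPM in PrE and 16.7 TPM in Epi. Cdh1, E-cadherin, was 32.2, 28.4 and 21.9 TPM in PrE, against 95.2, 25.7 and 57 TPM in Epi; Epi replicate 2 lay within the PrE range, and the gene was not called. Among 13 apical genes 6 were higher and 1 lower (median log2 difference 0.86). Pdzk1, a scaffold of brush border transporters, was 109.9, 116 and 117 TPM in PrE, against 3.37, 0.846 and 4.12 TPM in Epi (log2 5.06 ± 0.52, adjusted p = 9.8e-12). Vil1, the microvillar protein villin, was 25.8, 21.2 and 20.9 TPM in PrE, against 0.0833, 0 and 0.933 TPM in Epi (log2 4.20 ± 0.33, adjusted p = 2.4e-15). Podxl, podocalyxin, averaged 42.7 TPM in PrE and 2.60 TPM in Epi. Prom1 was the 1 lower, at 0.0245 TPM in PrE and 10.4 TPM in Epi, and was not called with Epi of E5.0 in vivo. Of 11 keratin, vimentin and desmosome genes 5 were higher (median log2 difference 0.62), among them Krt19 (149 TPM in PrE and 31.6 TPM in Epi) and Dsp, desmoplakin (14.9 TPM in PrE and 1.24 TPM in Epi), and Vim was the 1 lower. Integrin genes had 4 of 15 higher and 2 lower (median log2 difference -0.28); Itga5, the fibronectin receptor chain, averaged 21.0 TPM in PrE and 3.70 TPM in Epi. Among other called integrins, the call of Itgb1 was lost without Epi replicate 2, Itgb3 without Epi replicate 2, Epi replicate 3 or PrE replicate 1, and Itgb4 and Itgb5, both called lower, with Epi of E5.0 in vivo.

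Among 21 glycolysis genes 1 was higher and 9 were lower in PrE (median log2 difference -0.81). Ldhb, a lactate dehydrogenase chain, was 3.75, 5.62 and 4.52 TPM in PrE, against 251, 253 and 235 TPM in Epi (log2 -5.47 ± 0.69, adjusted p = 4.3e-09). Slc16a3, a lactate exporter, was 9.03, 3.98 and 4.80 TPM in PrE, against 224, 142 and 162 TPM in Epi (log2 -4.71 ± 0.49, adjusted p = 1.5e-11), and the hexokinase Hk1 averaged 0.212 TPM in PrE and 16.6 TPM in Epi. The 1 gene higher was the glucose transporter Slc2a3, with 271, 246 and 246 TPM in PrE, against 15.6, 3.09 and 4.29 TPM in Epi (log2 5.17 ± 0.29, adjusted p = 1.0e-20). Aldoa and Ldha, the most abundant uncalled members, averaged 2190 and 2470 TPM in PrE, and 3423 and 4307 TPM in Epi. Hk1 was not called with Epi of E5.0 in vivo. Cholesterol synthesis genes were higher for 7 of 22 and lower for 0 (median log2 difference 0.73). Ebp, a sterol isomerase, was 254, 249.8 and 284 TPM in PrE, against 26.5, 17.5 and 43.9 TPM in Epi (log2 3.21 ± 0.29, adjusted p = 2.1e-13). Fdps, which makes farnesyl diphosphate, was not called at 519.6, 529 and 577 TPM in PrE, against 508, 625 and 539 TPM in Epi.

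Retinol and vitamin transport had 10 of 17 genes higher and 3 lower (median log2 difference 1.21). Folr1, a folate receptor, was 1056, 1083 and 1124 TPM in PrE, against 78.7, 98.9 and 86.4 TPM in Epi (log2 3.62 ± 0.32, adjusted p = 1.2e-13). Tcn2, which carries vitamin B12, was 220.5, 224 and 244 TPM in PrE, against 14.8, 20.4 and 18.4 TPM in Epi (log2 3.62 ± 0.55, adjusted p = 3.3e-07). Rdh10, which oxidises retinol, averaged 32.7 TPM in PrE and 1.77 TPM in Epi. The lower members were the retinoic acid binding proteins Crabp1 (0.152 TPM in PrE and 19.8 TPM in Epi) and Crabp2 (3.21 TPM in PrE and 63.7 TPM in Epi) and the receptor Rarg, which was not called with Epi of E5.0 in vivo. Iron genes had 5 of 12 higher and 2 lower (median log2 difference 1.00). Fth1, ferritin heavy chain, was 13890, 13530 and 13770 TPM in PrE, against 3067, 3300 and 2985 TPM in Epi (log2 2.14 ± 0.09, adjusted p = 9.7e-27). Ftl1, ferritin light chain, was the most abundant transcript of both lineages in the table, at 30450 TPM in PrE and 12240 TPM in Epi on average; its processed copies make that level uncertain, and its call was lost under quantile normalization. Slc40a1, the iron exporter, averaged 103 TPM in PrE and 15.9 TPM in Epi, and Tfrc, the transferrin receptor, averaged 2.60 TPM in PrE and 19.9 TPM in Epi. Glutathione and detoxification genes had 5 of 15 higher and 4 lower (median log2 difference 0.25), beside 11.7% and 12.8% of all genes. Mgst3, a microsomal glutathione transferase, was 395, 344 and 323 TPM in PrE, against 41.6, 39.9 and 33.8 TPM in Epi (log2 3.17 ± 0.30, adjusted p = 6.6e-13). Gsta4, a cytosolic glutathione transferase, was 30.1, 36.4 and 35.6 TPM in PrE, against 506, 521 and 487 TPM in Epi (log2 -3.86 ± 0.27, adjusted p = 4.8e-17).

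Cell cycle regulators were higher for 0 of 25 and lower for 8 (median log2 difference -0.55). Ccnd1, cyclin D1, was 2.36, 0.475 and 1.08 TPM in PrE, against 39.6, 48.6 and 42.0 TPM in Epi (log2 -4.34 ± 0.33, adjusted p = 8.5e-16). Ccne1, cyclin E1, was 62.7, 57.9 and 65.3 TPM in PrE, against 416, 477 and 449 TPM in Epi (log2 -2.83 ± 0.20, adjusted p = 3.3e-17). The mitotic cyclin Ccnb1 was 610.2, 624 and 659 TPM in PrE, against 632, 624 and 643 TPM in Epi and was not called. The replication helicase genes Mcm2 and Mcm5 averaged 66.4 and 59.6 TPM in PrE, and 308 and 228 TPM in Epi, and neither was called with Epi of E5.0 in vivo. Imprinted growth genes had 2 of 16 higher and 3 lower (median log2 difference 0.24), few calls to set against the 11.7% and 12.8% of all genes. Each of the 5 calls was lost under some alternative. Impact was lost in a fit of only the groups compared, Phlda2 with median-ratio scaling, and Peg10 also without Epi replicate 1 or PrE replicate 3. Mest averaged 30.5 TPM in PrE and 172 TPM in Epi and was not called with Epi of E5.0 in vivo, and Igf2r, which clears IGF2, averaged 19.4 TPM in PrE and 5.17 TPM in Epi and was not called in a fit of only the groups compared. Heat shock and immediate early genes had 3 of 13 higher and 2 lower (median log2 difference 0.10). Hspb1, a small chaperone, was 2636, 2565 and 2529 TPM in PrE, against 388, 409.8 and 425 TPM in Epi (log2 2.66 ± 0.15, adjusted p = 1.8e-20). Hsp90aa1, an HSP90 gene, was 761, 815 and 792 TPM in PrE, against 2139, 1673 and 1897 TPM in Epi (log2 -1.26 ± 0.11, adjusted p = 4.0e-14).

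**Figure D3:**
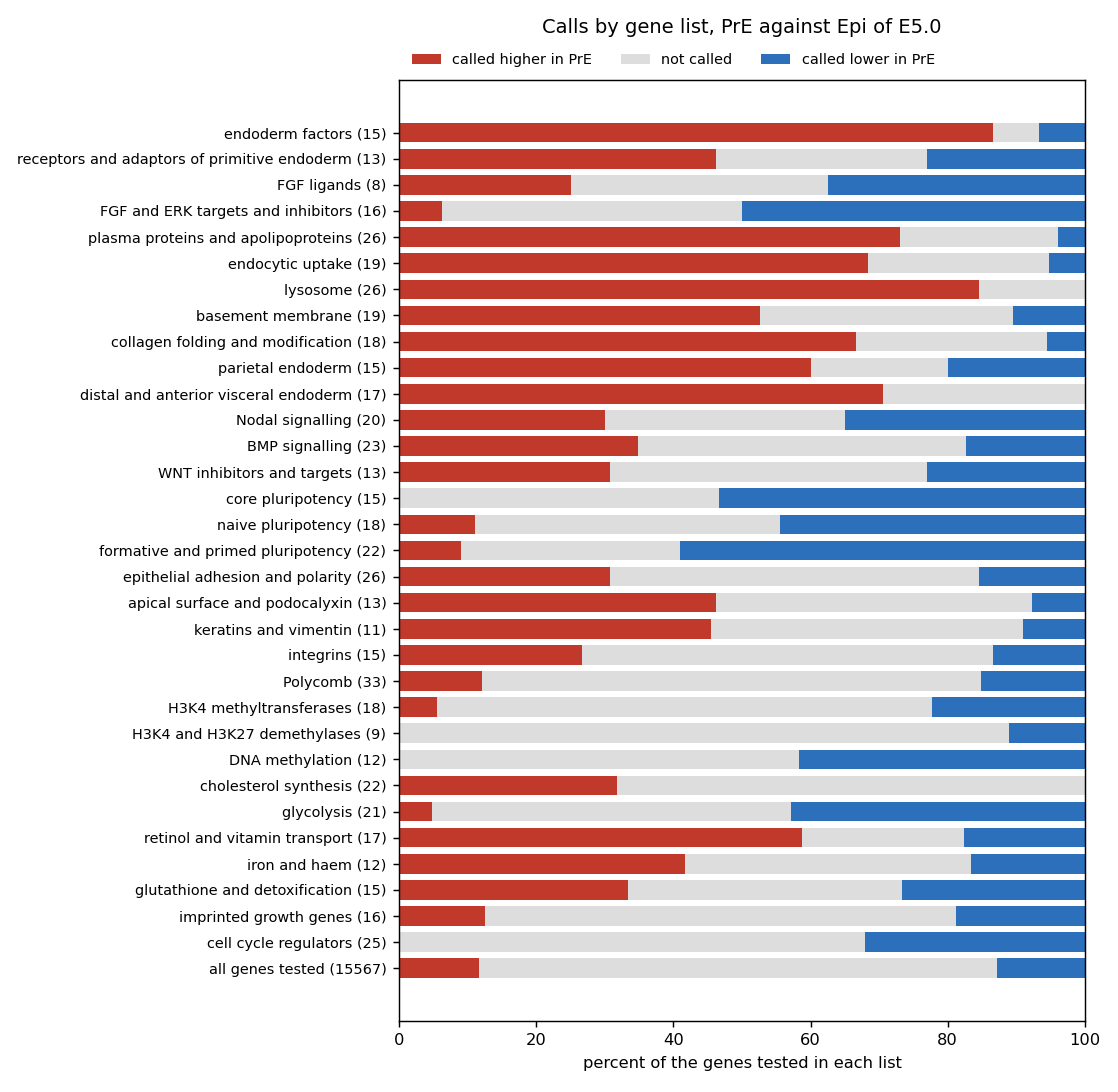
Percent of the tested genes of each list called higher in PrE (red), not called (grey) or lower in PrE (blue), with the number tested in brackets; the bottom bar is all 15567 genes. Endoderm factors, plasma proteins, endocytic uptake, lysosome, collagen folding and visceral endoderm lists are mostly red, and the pluripotency, FGF and ERK target, glycolysis and DNA methylation lists hold the longest blue bars of those drawn.

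The lineage difference at E5.0 was set against that at the ages beside it by testing the difference of differences for each gene. PrE and Epi of E4.75 and of E5.25 were separate libraries, but both tests use the same 6 libraries of E5.0. Relative to E4.75 the difference PrE minus Epi was larger (more positive) at E5.0 for 292 genes (1.88%) and smaller for 173 (1.11%). Relative to E5.25 it was larger for 118 (0.758%) and smaller for 210 (1.35%). These counts depended on the fit: with only the groups compared they were 609 larger and 544 smaller against E4.75, and 312 larger and 417 smaller against E5.25, and without PrE of E5.25 replicate 2 the 118 became 75. For most genes, then, the lineage difference did not pass the test of change between E5.0 and either age, which does not show that it was equal. Of the 13 trophectoderm genes tested, 10 passed the test with a more positive lineage difference at E5.0 than at E4.75 and 0 with a more negative one. At E4.75 the listed trophectoderm genes summed to 2079 to 2170 TPM in PrE and 2899 to 2983 TPM in Epi, and at E5.0 to 3301 to 3515 TPM in PrE and 1090 to 1194 TPM in Epi. The sum in Epi was thus higher than in PrE at E4.75 and lower at E5.0, but this turn rested on Fabp3, which is also a gene of endoderm. Fabp3 averaged 2033 TPM in PrE and 2029 TPM in Epi at E4.75, and 2995 TPM and 572 TPM at E5.0. Without Fabp3 the sum in Epi was the higher at both ages. The part of trophoblast RNA in the comparison with E4.75 was not tested.

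Several epiblast genes were present in PrE of E4.75 and near 0 in PrE of E5.0. Tdgf1 was 76.8, 81.1 and 69.3 TPM in PrE of E4.75 and 0, 0 and 0.0569 TPM in PrE of E5.0. In Epi it averaged 542 TPM at E4.75 and was 311, 268 and 257 TPM at E5.0. The lineage difference at E5.0 minus that at E4.75 was -5.27 ± 0.30 log2 (adjusted p = 1.0e-19). Pou5f1 in PrE was 27.6, 30.2 and 31.0 TPM at E4.75, 3.54, 1.26 and 2.90 TPM at E5.0 and 0, 0.321 and 0 TPM at E5.25. In Epi it was 165, 145 and 162 TPM at E4.75, 187, 146 and 134 TPM at E5.0 and 114, 149.8 and 112 TPM at E5.25. The same difference of differences was -3.13 ± 0.57 log2 (adjusted p = 1.5e-04), while against E5.25 it was 1.33 ± 0.57 log2 (adjusted p = 0.33) and not called. Slc7a3 in PrE was 70.6, 69.2 and 68.0 TPM at E4.75 and 0, 0.608 and 1.26 TPM at E5.0, and its difference of differences was -4.73 ± 0.63 log2 (adjusted p = 2.2e-07). At E4.75 the lineage differences of Tdgf1, Pou5f1 and Slc7a3 were alike, at -2.825, -2.373 and -2.291 log2. The part of epiblast RNA in the PrE libraries of E4.75 in these differences was not tested. Cyp26a1, which degrades retinoic acid, was in contrast near 0 in Epi of E4.75 alone. In PrE it was 259.5, 243 and 217 TPM at E4.75, 379, 394 and 369 TPM at E5.0 and 1093, 1028 and 1088 TPM at E5.25. In Epi it was 0.601, 0.206 and 0.663 TPM at E4.75, 173, 165 and 163 TPM at E5.0 and 71.9, 62.0 and 74.1 TPM at E5.25, and the difference of differences against E4.75 was -6.16 ± 0.45 log2 (adjusted p = 2.5e-15). Its call of higher in PrE at E5.0 was lost with a pseudocount of 0.1 TPM.

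The summed level of the plasma protein genes in PrE was 16020 to 16430 TPM at E4.75, 29470 to 30000 TPM at E5.0 and 20850 to 22800 TPM at E5.25. The lysosomal sum in PrE was 14150 to 14820 TPM at E4.75, 20380 to 21760 TPM at E5.0 and 13760 to 14020 TPM at E5.25. Both sums in PrE were highest at E5.0 of the 3 ages, without overlap between libraries; the PrE ages themselves were not tested against each other. Apoa1 in PrE was 2201, 2217 and 2154 TPM at E4.75, 4728, 4675 and 4907 TPM at E5.0 and 2383, 2554 and 2676 TPM at E5.25. In Epi Apoa1 was 0.597, 1.03 and 1.82 TPM at E4.75, 26.3, 28.2 and 40.1 TPM at E5.0 and 1.14, 0.386 and 0.498 TPM at E5.25. Its lineage difference was therefore smaller at E5.0, by the tests of -2.81 ± 0.72 log2 (adjusted p = 0.012) against E4.75 and -3.37 ± 0.72 log2 (adjusted p = 0.0021) against E5.25. Pga5 in Epi was 15.8, 21.4 and 18.7 TPM at E4.75, 122, 136 and 108 TPM at E5.0 and 0.930, 0 and 0 TPM at E5.25, and its lineage difference at E5.0 minus that at E5.25 was -6.21 ± 0.60 log2 (adjusted p = 8.5e-11). Ttr, listed at 0 in Epi of E5.25, was 9.43, 11.2 and 14.9 TPM in Epi of E5.0. Whole lists did not follow these genes in Epi. The plasma protein genes summed in Epi to 1665 to 1803 TPM at E4.75, 1209 to 1426 TPM at E5.0 and 572.5 to 588.4 TPM at E5.25, and the lysosomal genes to 2764 to 2803, 1995 to 2317 and 1544 to 1610 TPM at the same ages. Endocytic uptake genes summed in Epi to 879.3 to 905.1 TPM at E4.75, 430.7 to 533.6 TPM at E5.0 and 341.5 to 389.2 TPM at E5.25. All 3 sums in Epi were thus highest at E4.75 and lowest at E5.25. The part of endoderm RNA in the Epi libraries in these differences was not tested.

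Cldn3, Duoxa2 and Dusp6 divided the lineages more at E5.0 than at E5.25. Cldn3 in PrE was 1.38, 1.44 and 1.42 TPM at E4.75, 1.94, 1.56 and 2.49 TPM at E5.0 and 41.7, 56.3 and 52.2 TPM at E5.25. In Epi it was 109, 132 and 116 TPM at E4.75, 275, 337 and 313 TPM at E5.0 and 102, 106 and 92.7 TPM at E5.25, and the lineage difference at E5.0 minus that at E5.25 was -5.70 ± 0.49 log2 (adjusted p = 2.5e-12). Duoxa2, which helps the oxidase DUOX2 mature, was 1.46, 2.29 and 0 TPM in PrE at E5.0 and 25.0, 25.7 and 27.6 TPM at E5.25. In Epi it was 91.8, 145 and 104 TPM at E5.0 and 35.3, 44.6 and 38.1 TPM at E5.25, and its difference of differences was -5.24 ± 0.56 log2 (adjusted p = 1.4e-09). Dusp6 in PrE was 18.6, 19.9 and 22.7 TPM at E4.75, 7.22, 5.78 and 6.13 TPM at E5.0 and 20.4, 24.6 and 22.1 TPM at E5.25. The lineage difference of Dusp6 at E5.0 was more negative than at both other ages, with -1.34 ± 0.30 log2 (adjusted p = 0.0031) against E4.75 and -1.41 ± 0.30 log2 (adjusted p = 0.0024) against E5.25.

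**Figure D4:**
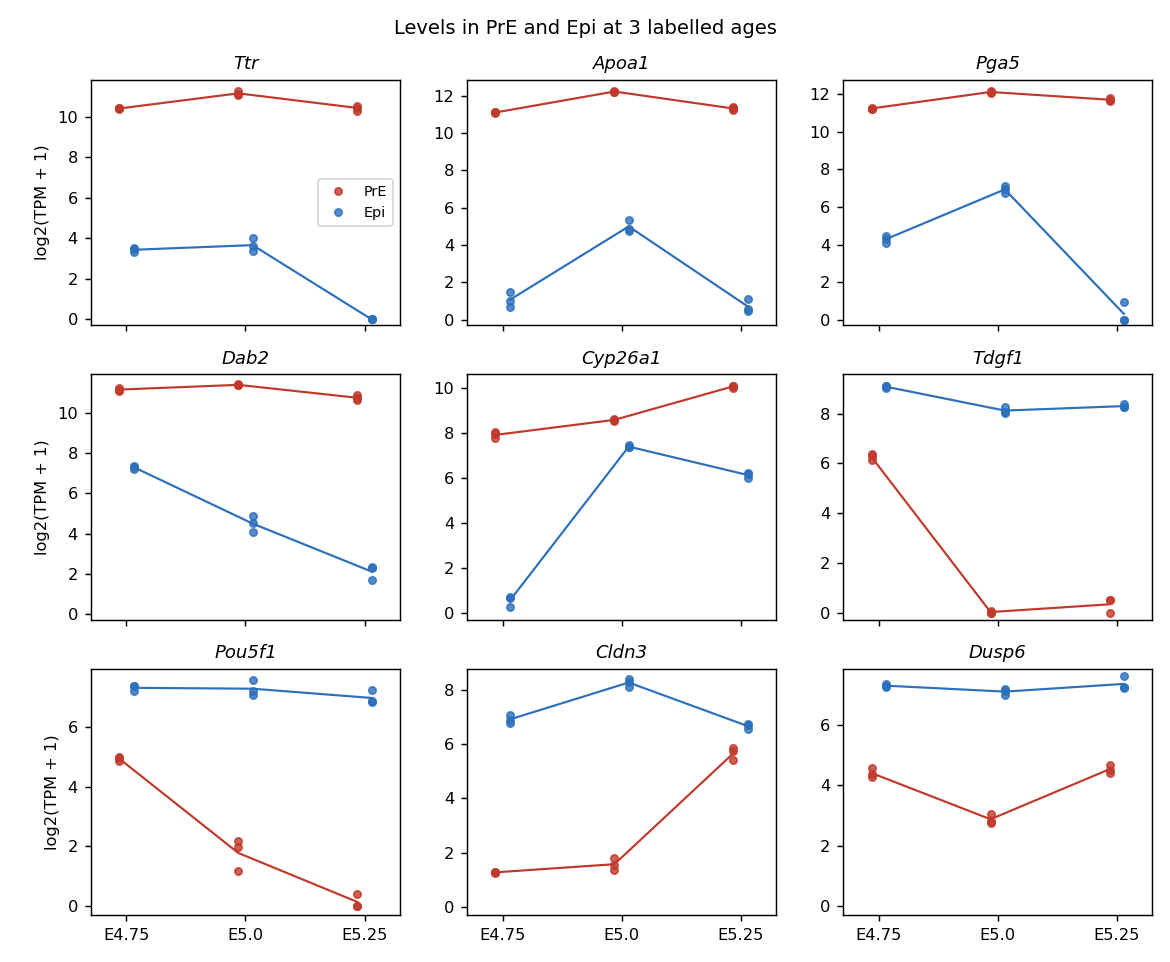
Levels of 9 genes, log2(TPM + 1), in PrE (red) and Epi (blue) at E4.75, E5.0 and E5.25; points are libraries and lines join the means of 3. Tdgf1 and Pou5f1 lie lower in PrE of E5.0 than of E4.75, Cyp26a1 lies near 0 in Epi of E4.75 alone, and Pga5 and Apoa1 are highest in Epi at E5.0.

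Genes of other tissues were present in both lineages of E5.0. Of the giant cell genes, Prl3d1, a placental lactogen gene of giant cells whose copies Prl3d2 and Prl3d3 are near-identical, was 172, 155 and 132 TPM in PrE, against 0.504, 1.09 and 0 TPM in Epi (log2 6.71 ± 0.85, adjusted p = 4.5e-09), and 21950, 18590 and 22240 TPM in TGC of E4.75. In PrE it was 0.279, 0.927 and 0.477 TPM at E4.75 and 8.35, 5.21 and 2.99 TPM at E5.25. Prl7a1 was 213, 232 and 179 TPM in PrE, against 0.274, 0.960 and 0 TPM in Epi and averaged 440.7 TPM in TGC of E4.75, and Plac1, a trophoblast membrane protein, was 148, 159 and 158 TPM in PrE, against 7.23, 4.55 and 2.19 TPM in Epi (log2 4.89 ± 0.52, adjusted p = 2.8e-11), and averaged 1058 TPM in TGC of E4.75. All 3 PrE libraries held these genes at similar levels. Of 11 giant cell genes tested 2 were higher and 2 lower in PrE (median log2 difference 0.00), beside 11.7% and 12.8% of all genes. The listed genes summed to 370.6 to 388.2 TPM in PrE, 103.1 to 120.7 TPM in Epi and 20380 to 24190 TPM in TGC of E4.75. Psg29 was 0.470, 0.929 and 1.59 TPM in PrE and listed at 0 in Epi, and Prl4a1, Ctsq and Prl8a9 were listed at 0 in both groups.

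Both lineages held extra-embryonic ectoderm genes. Elf5, a factor of trophoblast stem cells, was 11, 7.36 and 7.75 TPM in PrE, against 115, 82.8 and 87.8 TPM in Epi (log2 -3.31 ± 0.24, adjusted p = 1.4e-16), and 211, 186 and 198 TPM in ExE of E4.75. Of 14 extra-embryonic ectoderm genes tested 3 were higher and 5 lower in PrE (median log2 difference -0.17), beside 11.7% and 12.8% of all genes. The 5 lower were Elf5, Bmp4, Bmp8b, Wnt7b and Ets2. The 3 higher were Rhox6 (171 TPM in PrE and 35.1 TPM in Epi), Ascl2 (38.3 TPM in PrE and 10.4 TPM in Epi) and Esx1 (1.73 TPM in PrE and 0.031 TPM in Epi). The call of Ascl2 was lost without Epi replicate 2 or with Epi of E5.0 in vivo, and that of Esx1 without PrE replicate 1. The listed genes summed to 2458 to 2561 TPM in PrE and 2889 to 3046 TPM in Epi. Most of that sum was Rhox5, at 2236, 2160 and 2261 TPM in PrE, against 2481, 2701 and 2512 TPM in Epi, which was not called. Hand1, used by trophoblast and by mesoderm, was 66.3, 69.2 and 77.2 TPM in PrE, against 103, 91.4 and 108 TPM in Epi, and was not called. Gata3, a trophectoderm factor chosen after its values were seen, was 5.18, 4.68 and 4.38 TPM in PrE, against 30.2, 14.1 and 12.6 TPM in Epi, and was not called either. In Epi of E5.0 in vivo Elf5 was 33.5, 27.4 and 30.9 TPM, Hand1 27, 10.3 and 14.1 TPM and Gata3 2.95, 1.92 and 0.200 TPM. Trophectoderm genes had 3 of 13 higher and 1 lower (median log2 difference -0.22), few calls to set against the 11.7% and 12.8% of all genes. The listed trophectoderm genes summed to 3301 to 3515 TPM in PrE and 1090 to 1194 TPM in Epi. Most of the PrE sum was Fabp3, a fatty acid binding protein also of endoderm. It was 3140, 2911 and 2935 TPM in PrE, against 569.5, 623 and 524 TPM in Epi (log2 2.39 ± 0.16, adjusted p = 1.3e-17). Cdx2 was listed at 0 in PrE, against 3.35, 0.225 and 8.48 TPM in Epi, a call that was lost without Epi replicate 3, in a fit of only the groups compared or with Epi of E5.0 in vivo. Uterine stroma genes had 1 of 3 higher and 2 lower (median log2 difference -1.48), with sums of 5.45 to 9.21 TPM in PrE and 7.09 to 10.6 TPM in Epi, and blood genes had 0 of 5 higher and 2 lower (median log2 difference -0.03) and summed to 12.5 to 16.8 TPM in PrE and 22.1 to 30.0 TPM in Epi. Both lists were too small to set against the 11.7% and 12.8% of all genes. Dcn, a stromal proteoglycan, was listed at 0 in PrE, against 6.02, 4.06 and 5.09 TPM in Epi. Hoxa10 was the 1 stroma gene higher in PrE, at 6.73 TPM in PrE and 0.890 TPM in Epi on average. The part of trophoblast RNA in the lineage differences was not tested.

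**Figure D5:**
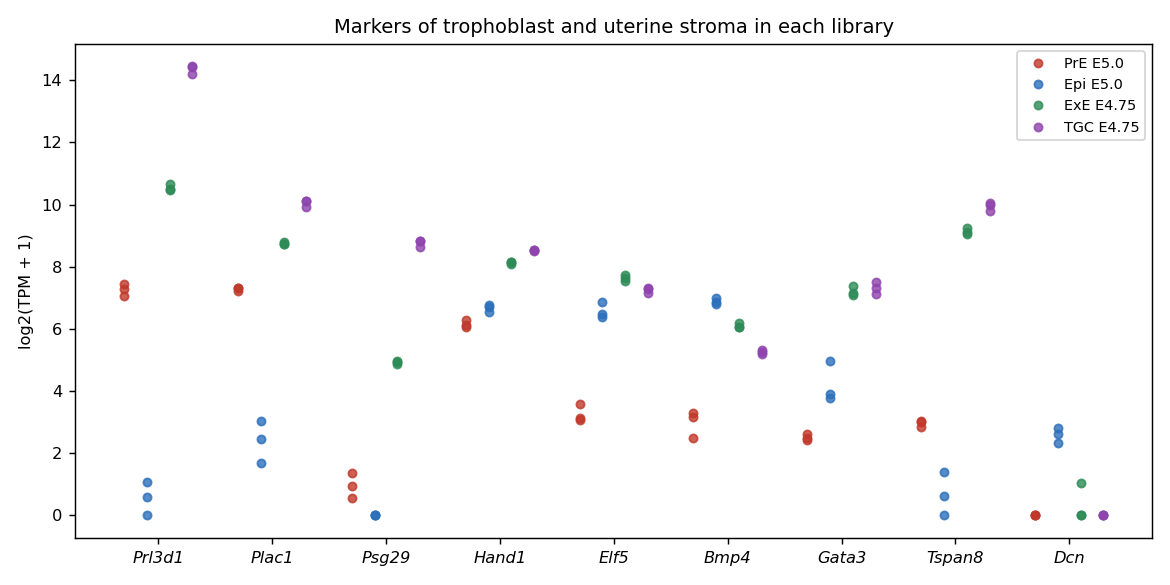
Markers of trophoblast and uterine stroma, log2(TPM + 1) in each library of PrE and Epi of E5.0 and of ExE and TGC of E4.75. Prl3d1 and Plac1 lie higher in all PrE than in all Epi libraries of E5.0, Elf5 and Bmp4 lie lower in all PrE than in all Epi libraries, and Dcn is listed at 0 in PrE.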

How the data were processed

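Polyadenylated RNA of 67 libraries in 23 groups was read by Smart-seq2, per the series' design text. The matrix the authors deposited holds TPM per gene. The submitters' processing notes name HISAT2 2.2.1, StringTie 2.2.1, Cufflinks and mm10 without giving their roles; the Cufflinks version and the annotation are not given in the sources used here. TPM columns summed to 987819 to 989960 in the E5.0 PrE and Epi libraries. Coordinates and promoters are on GRCm38.

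Genes with at least 1 TPM in at least 3 of 67 libraries (15567 of 25006) were tested on log2(TPM + 1) in R 4.3.3 by limma 3.58.1 (moderated by empirical Bayes with a trend in level, 1 mean per group, the spread shared by all groups, Benjamini-Hochberg over all genes). A call needed an adjusted p under 0.05 and a log2 difference of at least 1 in size. Interaction contrasts tested the lineage difference at E5.0 minus that at E4.75 and E5.25. The script was tested on simulated data of 15567 genes, where 7.3% of calls were false. There 100 genes per size were changed, drawn from middle levels in Epi. Noise was normal, with the same spread per gene in every group. The simulated shares therefore do not carry over to genes near 0 or to the wider spread of Epi. Tables and figures were made in Python 3.11.15.

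Named genes were Pdgfra, Ttr and Pou5f1, the lineage markers, per list up to 4 called genes in each direction of largest change and up to 2 uncalled of highest TPM, the 10 furthest without overlap in each direction, and the 6 of largest interaction in each direction, leaving out predicted genes; a few genes that the rule names are not reported here. The members and gene lists were chosen with earlier results of these data known. Alternatives were median-ratio scaling, quantile normalization, other filters and pseudocounts, array weights, a replicate block, fits of only the groups compared or without the E4.5 libraries, Epi of E5.0 in vivo, and leaving out each library. A fit of only the 6 libraries with its own filter was chosen after seeing the data.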

Additional observations from a re-analysis of the deposited data

Results flagged for a closer look

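The difference between the lineages at E5.0 departed from that at E4.75 or E5.25, by limma's test of the difference of differences (Benjamini-Hochberg over all genes), in many genes, and the 6 of largest change in each direction and comparison are given here. The values are log2 units, PrE minus Epi at E5.0 minus the same at the other age. Both comparisons use the E5.0 libraries. Where a group is listed at 0, the value depends on the pseudocount and is not a bound.

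Against E4.75 the difference was more positive for Prl7a1 (7.71), Tspan8 (7.10), Entpd1 (7.09) and Adh1 (6.71). Prl7a1 was 213, 232 and 179 TPM in PrE of E5.0, against 0, 0 and 0 TPM in PrE of E4.75. For Tspan8, a tetraspanin of the trophectoderm list, the Epi libraries held 1.62, 0.540 and 0 TPM at E5.0, against 189.8, 173 and 195 TPM at E4.75. BC051665 (7.64) and BC053393 (6.60) were listed at 0 in all libraries of E5.0, so their values rest on E4.75 alone. The difference was more negative for Cyp26a1 (-6.16), Ifitm3 (-5.49), Tdgf1 (-5.27), Pla2g1b (-5.08), Slc7a3 (-4.73) and Mgarp (-4.55). In PrE of E4.75 Ifitm3 was 54.8, 71.0 and 60.2 TPM and Pla2g1b 45.1, 44.9 and 56.4 TPM, while at E5.0 Ifitm3 was listed at 0 in PrE. The part of epiblast RNA in the PrE libraries of E4.75 was not tested.

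Against E5.25 the difference was more positive for Prl3d1 (7.07), Prl7a1 (6.29), Prl3d3 (5.26), Prl3d2 (5.251), Rgcc (4.52) and Prl2a1 (3.90). Of these 6, 5 are prolactin-family genes, and Prl3d1, Prl3d2 and Prl3d3 are near-identical copies. Rgcc, a cell cycle regulator, was 56.4, 44.3 and 39.2 TPM in PrE of E5.0, against 0.860, 2.16 and 0 TPM in PrE of E5.25. The difference was more negative for Pga5 (-6.21), Cldn3 (-5.70), Duoxa2 (-5.24), Inpp1 (-5.19), Bok (-5.11) and Gprc5a (-5.10). Bok in PrE was 0.235, 0.493 and 0 TPM at E5.0 and 14.9, 19.1 and 20.8 TPM at E5.25, and in Epi 87.0, 134 and 111 TPM at E5.0 and 51.4, 48.1 and 46.6 TPM at E5.25. The part of trophoblast RNA was tested neither in the prolactin-family differences nor in those against E4.75, where 10 of 13 trophectoderm genes passed the test with a more positive difference and 0 with a more negative one.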

How the results depend on the processing

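Of 284 genes named, 214 were called, and 172 of the 214 kept their call under every alternative run except that with Epi of E5.0 in vivo, and 147 under that one too. With Epi of E5.0 in vivo instead, 4087 genes were higher and 1264 lower, and the log2 difference turned for 25 named genes: Shc1 0.963, Fgfr2 0.338, Fgf3 1.417, Spry1 2.063, Mfsd2a 0.455, Scarb1 2.050, Fkbp10 0.381, Snai1 1.309, Lefty2 0.063, Bmp7 0.097, Tcf7l1 0.687, Mycn 3.546, Ezr 2.275, Itgb4 0.217, L3mbtl2 0.852, Cxxc1 0.521, Rara 1.508, Steap3 0.034, Peg10 0.328, H19 1.815, Mcm2 0.268, Mcm5 0.182, Hand1 2.089, Ascl2 -0.564, Ier2 1.453. A gene was counted as turned where the sign differed and at least 1 of the 2 fits called it. None of the 25 was called in both fits, so no call was reversed. The cause was not tested. Counts higher and lower were 2094 and 1554 with median-ratio scaling, which moved the median of all genes from -0.08 to 0, 1962 and 1892 with quantile normalization, 1732 and 1810 with no filter, 1763 and 2045 with a pseudocount of 0.1, and 2061 and 2468 with array weights. The replicate numbers were not taken to pair the samples, since not every same-numbered pair deviated together. Same-numbered PrE and Epi libraries correlated in their deviations at 0.169, 0.0277 and 0.0448. The 0.169, between replicate 1 of PrE and of Epi, was the highest of all pairs. At E4.75, as at E5.0, Rn45s was lowest in replicate 1 of both lineages (8060 TPM in PrE and 7983 TPM in Epi). At E5.25 it was highest in replicate 1 of both (5311 TPM in PrE and 3960 TPM in Epi). PrE replicate 1 correlated at -0.103 and -0.0584 with Epi replicates 2 and 3, and PrE replicate 3 correlated best with Epi replicate 2. With a replicate block 1613 were higher and 1752 lower, and 18 named calls were lost, among them Itga5, Tfrc and Gsc.

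Against E4.75, 292 genes became 823 with array weights, 609 with only the groups compared and 500 with the replicate block, and 173 became 748, 544 and 434 under the same settings. Against E5.25, 118 became 543 with array weights, 312 with only the groups compared and 72 with a pseudocount of 0.1, and 210 became 631 and 417 with array weights and only the groups compared. Leaving out 1 library gave 1558 to 1896 higher and 1707 to 2072 lower, 236 to 319 and 131 to 169 against E4.75, and 75 to 166 and 171 to 199 against E5.25, the 75 without PrE of E5.25 replicate 2. TPM gives no depth, so what depth limits cannot be stated. In simulated data 69% of genes changed by 1.5 log2 units and 96% of those changed by 3 were called. Those genes were of middle level in Epi, with the same spread in every group, so the shares do not cover genes near 0.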
